A study of Mus musculus with 75 samples.

Results

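The G1 cyclins, the kinases they activate and the proteins that restrain them were followed as 10 mouse genes, Ccnd2, Ccnd3, Ccne1, Ccne2, Cdk4, Cdk6, Cdkn1a, Cdkn1b, E2f1 and Rbl2. They were chosen by gene identifier, from 53465 identifiers in each of the deposited count tables, and all 10 passed the filter on low counts in both assays. Effector T cells, sorted as CD4+CD25- cells, came from the spleens and lymph nodes of 9 mice. In the RiboTag assay, 5 mice had B6N.129-Rpl22tm1.1Psam/J as 1 parent line and the Cre line B6.Cg-Tg(Cd4-cre)1Cwi/BfluJ as the other, and carried a hemagglutinin tag on a ribosomal protein in the cells where Cd4-cre had acted. Their cells were rested with IL7, stimulated with anti-CD3/CD28 beads, or stimulated with beads beside regulatory T cells (Tregs), and RNA was taken before (Input) and after (IP) precipitation of the tagged ribosomes. In the SPEED assay, cells of 4 mice labelled B6.SJL-PtprcaPepcb/BoyJ were left untreated, stimulated with beads, stimulated with beads and Tregs, or stimulated with beads and given HHT for 10 min before harvest. From these, Input, polysomal (Pol) and subpolysomal (SubPol) RNA was taken after sucrose fractionation. Per the labels' protocols the Tregs were sorted as CD4+YFP+ cells. The labels used here do not give their removal before lysis, the length of the cultures, the age of the mice or the full name of HHT. A precipitate is meant to hold RNA on ribosomes of tagged effector cells, and carry-over of other RNA into it was not checked here. Input and sucrose fractions of the Treg cultures may hold RNA of Tregs too. Markers of T cells and Tregs were not checked here, because no table used here pairs the other identifiers with gene names.

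A T cell that is not dividing rests before DNA replication, in G1 or G0. D-type cyclins (Ccnd2, Ccnd3) activate Cdk4 and Cdk6, which phosphorylate the retinoblastoma family of pocket proteins, of which Rbl2 is a member typical of resting cells. That releases E2F transcription factors such as E2f1, whose targets include the E-type cyclins Ccne1 and Ccne2, the activators of Cdk2 at the start of DNA replication. Cdkn1b (Kip1) and Cdkn1a (Cip1) encode inhibitors that bind these kinase complexes. Cdkn1b protein is abundant in resting T cells and is lost when they are activated, and Cdkn1a is a classical target of p53 that is also induced by mitogens.

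The RefSeq annotation of GRCm38.p6 places Ccnd2 (ENSMUSG00000000184) at chr6:127125162-127152188, Ccnd3 (ENSMUSG00000034165) at chr17:47505051-47599689, Ccne1 (ENSMUSG00000002068) at chr7:38097984-38107490, Ccne2 (ENSMUSG00000028212) at chr4:11190433-11204779 and Cdk4 (ENSMUSG00000006728) at chr10:127063535-127067288. It places Cdk6 (ENSMUSG00000040274) at chr5:3341004-3531008, Cdkn1a (ENSMUSG00000023067) at chr17:29090979-29100722, Cdkn1b (ENSMUSG00000003031) at chr6:134920401-134925525, E2f1 (ENSMUSG00000027490) at chr2:154559400-154569892 and Rbl2 (ENSMUSG00000031666) at chr8:91070057-91123844. Promoter sequences from RefSeq were matched by symbol for 8 of the 10 genes, and those of the 6 genes with 1 such window each are printed, all of them called on stimulation in Input of at least 1 assay below. Each is the 250 bases before an annotated start, on the strand of the gene, 5′ to 3′. Capitals mark matches, on either strand, to 5 motifs searched in the 300 bases from 250 before to 50 after each start. These were TCCCGC and TTGGCGC, both found within E2F sites, CACGTG, the E-box bound by Myc, TGTTTAC, a forkhead site, and TTTGAA, the cell cycle genes homology region. None of the motifs contains another, and TCCCGC and CACGTG were chosen after the promoters had been read.
Cdk4, chr10:127063285-127063534, plus strand: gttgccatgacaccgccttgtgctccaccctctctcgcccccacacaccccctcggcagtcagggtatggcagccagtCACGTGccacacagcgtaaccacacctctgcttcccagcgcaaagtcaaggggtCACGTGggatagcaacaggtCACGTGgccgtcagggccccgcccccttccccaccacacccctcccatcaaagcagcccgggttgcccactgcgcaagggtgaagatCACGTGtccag
Ccne1, chr7:38107491-38107740, minus strand: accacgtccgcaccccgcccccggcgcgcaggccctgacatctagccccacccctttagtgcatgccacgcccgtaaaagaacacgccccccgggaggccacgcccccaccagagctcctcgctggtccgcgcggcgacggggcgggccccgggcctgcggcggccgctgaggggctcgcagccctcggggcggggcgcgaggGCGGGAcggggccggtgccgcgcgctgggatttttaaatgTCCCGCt
Cdk6, chr5:3343643-3343892, plus strand: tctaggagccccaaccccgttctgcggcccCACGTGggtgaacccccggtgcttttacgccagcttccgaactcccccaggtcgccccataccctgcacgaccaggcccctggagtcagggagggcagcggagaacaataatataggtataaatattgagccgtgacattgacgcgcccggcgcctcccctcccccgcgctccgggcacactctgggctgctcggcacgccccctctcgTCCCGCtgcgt
Rbl2, chr8:91069807-91070056, plus strand: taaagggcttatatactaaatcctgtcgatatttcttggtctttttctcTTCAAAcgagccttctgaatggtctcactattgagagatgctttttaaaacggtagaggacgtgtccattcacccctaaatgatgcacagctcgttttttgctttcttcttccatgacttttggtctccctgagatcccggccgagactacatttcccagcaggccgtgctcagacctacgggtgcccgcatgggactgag
Cdkn1b, chr6:134920151-134920400, plus strand: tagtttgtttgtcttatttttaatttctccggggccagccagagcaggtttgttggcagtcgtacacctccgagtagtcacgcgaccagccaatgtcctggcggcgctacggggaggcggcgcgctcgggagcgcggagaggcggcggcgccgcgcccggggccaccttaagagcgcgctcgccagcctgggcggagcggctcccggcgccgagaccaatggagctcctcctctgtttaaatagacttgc
E2f1, chr2:154569427-154569676, minus strand: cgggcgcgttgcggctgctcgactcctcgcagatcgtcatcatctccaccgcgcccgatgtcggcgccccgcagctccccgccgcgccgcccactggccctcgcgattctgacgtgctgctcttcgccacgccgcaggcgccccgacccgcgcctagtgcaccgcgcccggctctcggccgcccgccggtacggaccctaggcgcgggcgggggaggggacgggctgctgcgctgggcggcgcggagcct
The Cdk4 promoter held CACGTG 4 times, with the first base at positions -172, -118, -98 and -11 from the start. Among 32817 promoter windows of the same length, 7.15% held it at least 1 time and 8 windows, or 0.0244%, held it at least 4 times. The Ccne1 promoter held TCCCGC at -7 and its reverse complement at -47. The Cdk6 window held TCCCGC at -11 and at -1, where the match runs past the start and so past the printed letters, and CACGTG at -220. TCCCGC was in 20% of windows. Rbl2 held the reverse complement of TTTGAA at -201, a motif in 17.9% of windows, and Ccnd3 held TGTTTAC at -243, a motif in 3.65%. TTGGCGC, in 2.45% of windows, was in none of the 8 genes' windows, and no motif was in those of Cdkn1a, Cdkn1b or E2f1, which says only that these letters are not in these windows. The E2f1 and Cdk6 windows lie wholly inside the span of the gene given above, before a start that is also inside it. The bases before the outer end of these 2 spans were therefore not searched. The lack of a motif in the E2f1 window thus says nothing about the bases before the outer end of E2f1. The matches are descriptions of letters and were not tested for use.

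Levels below are in CPM, counts scaled to a common library size with factors from the trimmed mean of M values (TMM), in order of mouse number. Library totals ran from 1658481 to 2824875 counts in RiboTag and from 1566501 to 4621104 in SPEED. Changes are log2 fold changes with standard error, tested with edgeR's quasi-likelihood test and Benjamini-Hochberg adjustment over all genes of an assay, called at an adjusted p under 0.05. Because every value is relative to the rest of its library, a cell's total RNA is not measured, and fewer cells of a type cannot be told apart from less RNA per cell. The RiboTag libraries of mice 1 and 2 stood apart from those of mice 3 to 5. Over 8738 genes, rested Input libraries differed by a root mean square of 0.534 to 0.606 (log2) in the 6 pairs across these sets of mice and by 0.418 to 0.476 in the 4 pairs within them. Stimulated Input showed the same split, at 0.42 to 0.461 against 0.334 to 0.368. The split was seen in these same data, so adjusted p values from mice 3 to 5 alone are no separate support for a change.

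Bead stimulation separated the 10 genes into sharp inductions, falls and near-constant levels. Both E-type cyclins, E2f1 and Cdk4 rose in both assays, Cdkn1b and Rbl2 fell in both, and the D-type cyclins moved by at most 0.44 on the log2 scale. In RiboTag Input, 7 genes were called, where 63.3% of the 10751 genes tested were, and 5 rose and 2 fell, against 32% and 31.4% of genes. In RiboTag IP, 8 were called (64.7% of genes), and 6 rose and 2 fell (33.6% and 31.1%). In SPEED Input, 8 were called (54.4% of 12428 genes), and 6 rose and 2 fell (27.9% and 26.5%). In SPEED Pol, 8 were called (55.8%), and 6 rose and 2 fell (28.5% and 27.3%). Most genes tested were called too, so the counts alone do not set these 10 apart. The median change of the 10 genes was 0.76 in RiboTag Input, 0.70 in RiboTag IP, 0.84 in SPEED Input and 0.90 in SPEED Pol. Over all genes tested the medians were -0.0050, 0.018, 0.0076 and 0.0037. The controls differ between the assays, IL7-rested cells in RiboTag and untreated cells in SPEED, and so do the mice.

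**Figure D1:**
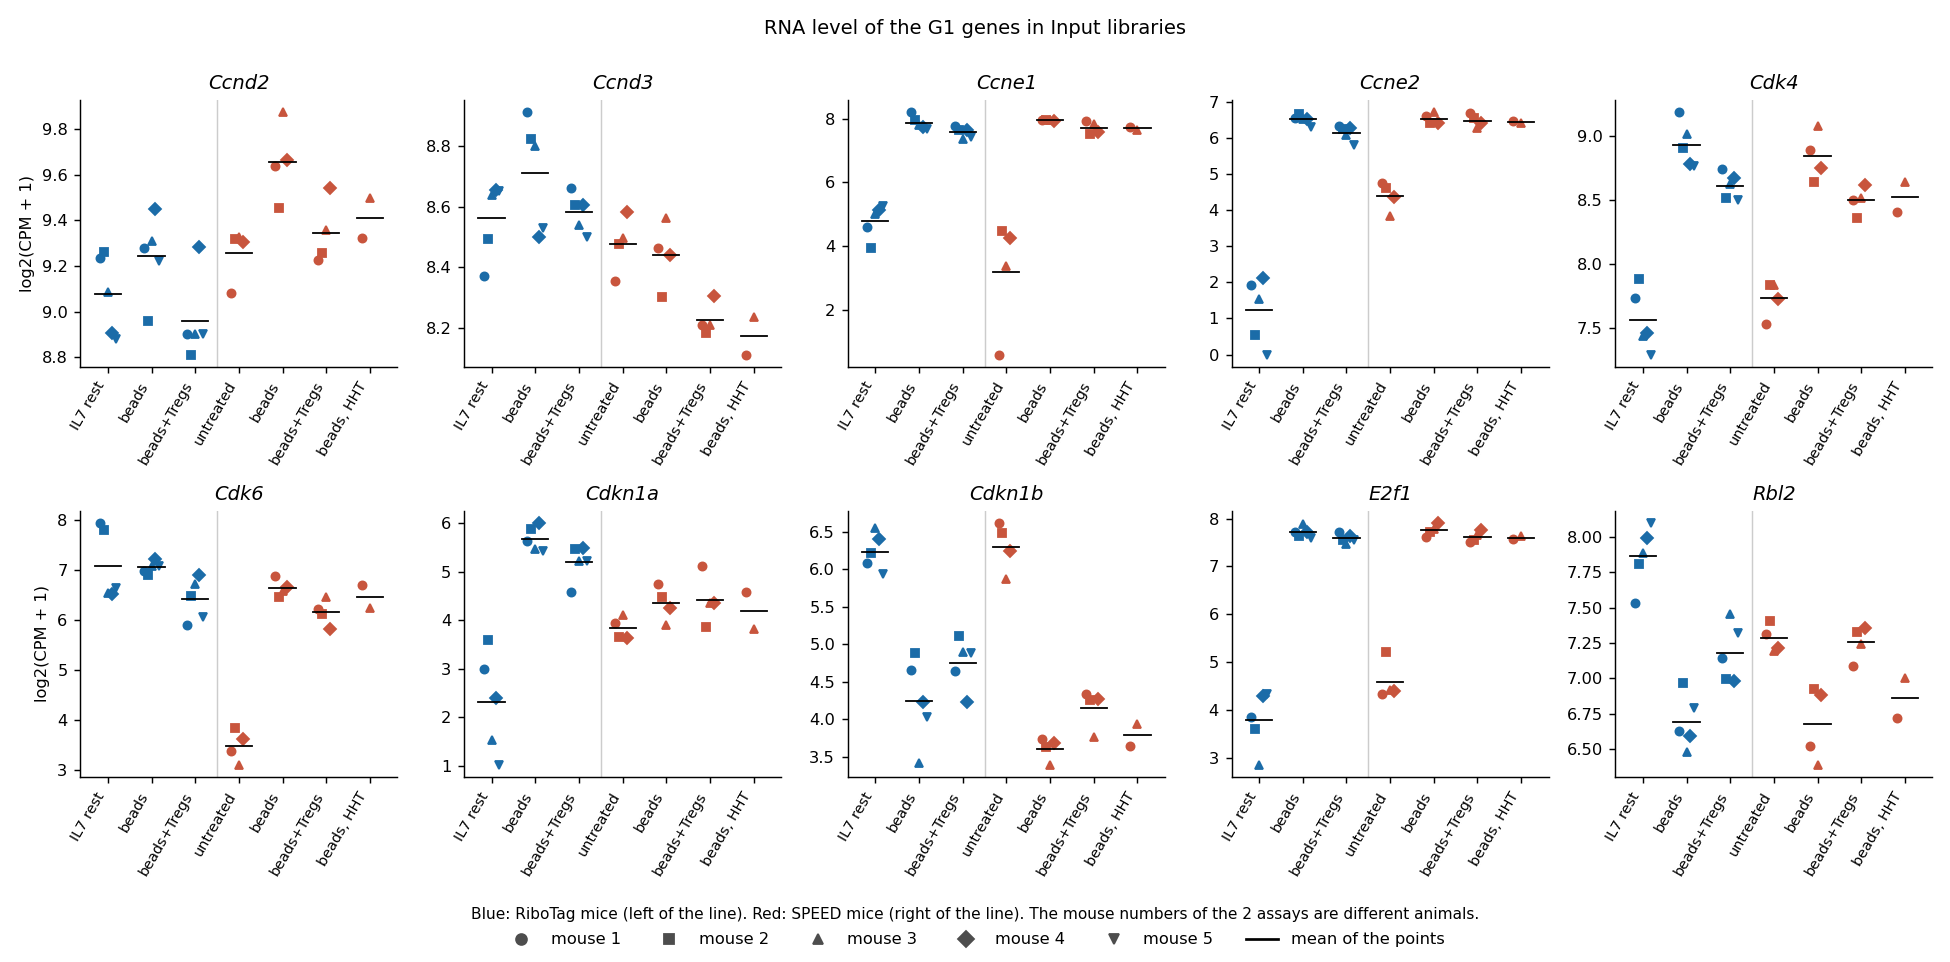
Input RNA level of each of the 10 genes as log2(CPM + 1), 1 point per library, with RiboTag mice in blue on the left of the line and SPEED mice in red on the right. Horizontal bars are means of the points and vertical scales differ between genes. Ccne1, Ccne2, E2f1 and Cdk4 were higher in every bead-stimulated library than in any unstimulated one of the same assay, Cdkn1b and Rbl2 were lower, and rested Cdk6 fell into a high pair of mice and a low trio.

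Ccnd2, a D-type cyclin prominent in lymphocytes, was already abundant without stimulation. RiboTag Input gave 602, 613, 543, 479.6 and 471 CPM in rested cells of mice 1 to 5 and 619, 496, 633, 697 and 595 CPM with beads. These groups overlapped, since mouse 2 had less with beads than at rest, and the change was 0.17 ± 0.10 (SE; adjusted p = 0.159). Without mouse 2 it was called, at 0.29 (adjusted p = 0.0132), and likewise in mice 3 to 5 alone, at 0.39 (0.00356). Rested Ccnd2 was higher in mice 1 and 2 than in mice 3 to 5, so these adjusted p values are no separate support for a rise. In SPEED Input the untreated cells had 540.2, 637, 641 and 631 CPM and the stimulated cells 794, 701, 936 and 809 CPM. Here every stimulated library was above every untreated one, a change of 0.40 ± 0.15 (SE; adjusted p = 0.0187). That call was lost without mouse 1 (adjusted p = 0.102) or mouse 3 (0.0744). The change was 0.25 ± 0.10 (SE; adjusted p = 0.0368) in RiboTag IP, where leaving out mouse 1, 3, 4 or 5, or using no filter on low counts, ended the call, and 0.44 ± 0.15 (SE; adjusted p = 0.00993) in SPEED Pol. Ccnd3, the other D-type cyclin of lymphocytes, was at 329.9 to 402 CPM in rested and 361 to 480.3 CPM in stimulated RiboTag Input, and at 327 to 382 and 315 to 377 CPM in untreated and stimulated SPEED Input. Its change was 0.15 ± 0.087 (SE; adjusted p = 0.12) in RiboTag Input and -0.04 ± 0.13 (SE; adjusted p = 0.826) in SPEED Input, with a 95% interval of -0.29 to 0.22 in the latter. RiboTag Input gave a call without mouse 4 (0.24, adjusted p = 0.0382). The change was 0.09 ± 0.087 (SE; adjusted p = 0.385) in RiboTag IP and 0.24 ± 0.13 (SE; adjusted p = 0.113) in SPEED Pol, and the last was called with RLE scaling (0.30, adjusted p = 0.0434), with DESeq2 (0.30, 0.0355) and without mouse 3 (0.27, 0.0402).

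The E-type cyclins rose in all 4 comparisons. Ccne1 was at 23.2, 14.3, 31.4, 34.4 and 37.5 CPM in rested RiboTag Input and at 294, 248, 224, 214 and 205 CPM with beads. In SPEED Input it went from 0.507, 21.3, 9.38 and 18.1 CPM to 248, 248, 251 and 246 CPM. The stimulated libraries lay within a narrower band than the unstimulated ones on the log scale, with only 2 counts in untreated mouse 1 of SPEED. The rise was 3.07 ± 0.19 (SE; adjusted p = 3.66e-15), or 8.42-fold, in RiboTag Input and 4.31 ± 0.27 (SE; adjusted p = 2.59e-16), or 19.8-fold, in SPEED Input. The rise was 4.15 ± 0.21 (SE; adjusted p = 1.14e-17) in RiboTag IP and 4.71 ± 0.28 (SE; adjusted p = 5.11e-17) in SPEED Pol.

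Ccne2 was near 0 in rested RiboTag cells and higher in untreated SPEED cells. Rested RiboTag Input held 6, 1, 4, 7 and 0 counts, or 2.78, 0.46, 1.9, 3.34 and 0 CPM, against 94.1, 101, 91.9, 92.3 and 78.3 CPM with beads. Untreated SPEED Input held 25.8, 23.4, 13.3 and 19.8 CPM, against 97.5, 84.2, 104 and 85.6 CPM with beads. With CPM scaled separately in each assay, the stimulated levels covered nearly the same range, and the groups did not overlap within either assay. The rise was 5.69 ± 0.32 (SE; adjusted p = 4.2e-16) in RiboTag Input, where it rests on very few counts in the rested cells, and 2.16 ± 0.22 (SE; adjusted p = 8.64e-11), or 4.48-fold, in SPEED Input. RiboTag IP gave 5.75 ± 0.33 (SE; adjusted p = 3.85e-16) and SPEED Pol 3.61 ± 0.25 (SE; adjusted p = 5.01e-15).

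Cdk4, the kinase partner of the D-type cyclins, rose by similar amounts in all 4 comparisons. RiboTag Input had 212, 234, 172, 175 and 156 CPM at rest and 579, 477, 516, 439 and 432 CPM with beads. SPEED Input had 183, 227, 228 and 210.2 CPM untreated and 473, 398, 538 and 429.7 CPM with beads. No stimulated library reached down to the unstimulated range in either assay. The change was 1.36 ± 0.10 (SE; adjusted p = 3e-13), or 2.57-fold, in RiboTag Input, 1.16 ± 0.10 (SE; adjusted p = 9.01e-12) in RiboTag IP, 1.11 ± 0.16 (SE; adjusted p = 1.81e-07) in SPEED Input and 1.09 ± 0.16 (SE; adjusted p = 2.38e-07) in SPEED Pol.

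Cdk6, the other D-cyclin kinase, behaved differently in the assays and between RiboTag mice. Untreated SPEED Input held 9.37, 13.3, 7.56 and 11.3 CPM and stimulated Input 116, 86.4, 94.4 and 99.2 CPM, a rise of 3.24 ± 0.27 (SE; adjusted p = 6.45e-13), or 9.44-fold. Rested RiboTag Input held 244, 219.7, 91.9, 90.2 and 98.2 CPM and stimulated Input 125, 118, 134, 147 and 133 CPM. Mice 1 and 2 were thus far above mice 3 to 5 at rest, and above every stimulated library, whereas all 5 mice were close together with beads. The precipitated RNA showed the same division at rest, with 237, 210.2, 58.0, 71.5 and 71.0 CPM. Over the 5 mice the change was -0.18 ± 0.31 (SE; adjusted p = 0.629) in Input, with a 95% interval of -0.81 to 0.45, and 0.18 ± 0.31 (SE; adjusted p = 0.618) in IP. In mice 3 to 5 alone, those with low Cdk6 at rest, Cdk6 rose by 0.59 in Input (adjusted p = 0.00525) and by 1.19 in IP (6.05e-06). In mice 1 and 2 Input was lower with beads than at rest. Because these sets of mice already differ in rested Cdk6, the adjusted p values of mice 3 to 5 are no separate support for a rise. In SPEED Pol Cdk6 rose by 2.54 ± 0.26 (SE; adjusted p = 8.72e-11).

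The inhibitors Cdkn1a and Cdkn1b moved in opposite directions in RiboTag. Cdkn1a was at 6.96, 11.1, 1.9, 4.29 and 1.03 CPM in rested Input, of which mouse 5 had 2 counts, and at 48.6, 57.8, 43.1, 63.5 and 42.1 CPM with beads. That was a rise of 3.30 ± 0.34 (SE; adjusted p = 7.3e-10), and IP gave 3.53 ± 0.34 (SE; adjusted p = 1.51e-10). In SPEED Input Cdkn1a was at 14.4, 11.6, 16.3 and 11.5 CPM untreated and 26.0, 21.5, 14.0 and 18.1 CPM stimulated, and these groups overlapped. The change was 0.57 ± 0.32 (SE; adjusted p = 0.135) in SPEED Input and 0.71 ± 0.33 (SE; adjusted p = 0.0612) in SPEED Pol, where the fit with the mouse as a replicate block called it (0.69, adjusted p = 0.0266), as did RLE scaling (0.77, 0.0428), DESeq2 (0.78, 0.0357) and the fit without mouse 4 (0.90, 0.043). Cdkn1b fell in every mouse in all 4 comparisons. RiboTag Input went from 66.8, 73.2, 92.8, 83.5 and 60.1 CPM to 24.3, 28.6, 9.68, 17.7 and 15.4 CPM, and SPEED Input from 97.5, 88.4, 57.5 and 74.9 CPM to 12.3, 11.4, 9.49 and 11.8 CPM, with no overlap in either. The change was -1.98 ± 0.28 (SE; adjusted p = 3.69e-07), a 3.96-fold fall, in RiboTag Input, -2.42 ± 0.29 (SE; adjusted p = 1.5e-08) in RiboTag IP, -2.81 ± 0.25 (SE; adjusted p = 3.61e-12), a 7.03-fold fall, in SPEED Input and -2.52 ± 0.25 (SE; adjusted p = 4.46e-11) in SPEED Pol.

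E2f1, the transcription factor that drives E-type cyclin genes, and Rbl2, the pocket protein gene, changed in opposite directions. E2f1 went from 13.5, 11.1, 6.19, 18.6 and 19.0 to 211, 199, 235, 209 and 193 CPM in RiboTag Input. SPEED Input went from 19.0, 36.0, 20.3 and 20.1 to 196, 209, 220.4 and 240.1 CPM. Untreated mouse 2 of SPEED lay above the other 3, and no groups overlapped. The rise was 3.94 ± 0.21 (SE; adjusted p = 1.24e-16), or 15.3-fold, in RiboTag Input and 3.17 ± 0.19 (SE; adjusted p = 1.14e-16), or 9.02-fold, in SPEED Input. It was 4.21 in RiboTag IP and 3.25 in SPEED Pol. Rbl2 was at 184, 223, 236, 253 and 273 CPM in rested and 97.8, 124, 88.1, 95.4 and 109.7 CPM in stimulated RiboTag Input, and at 158, 168, 145 and 148 and 91.0, 120.3, 82.7 and 117 CPM in untreated and stimulated SPEED Input. It fell in all 5 and all 4 mice, with changes of -1.18 ± 0.16 (SE; adjusted p = 1.62e-07) and -0.59 ± 0.17 (SE; adjusted p = 0.00435). The change was -1.13 ± 0.16 (SE; adjusted p = 3.45e-07) in RiboTag IP and -1.07 ± 0.18 (SE; adjusted p = 2.4e-06) in SPEED Pol.

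**Figure D2:**
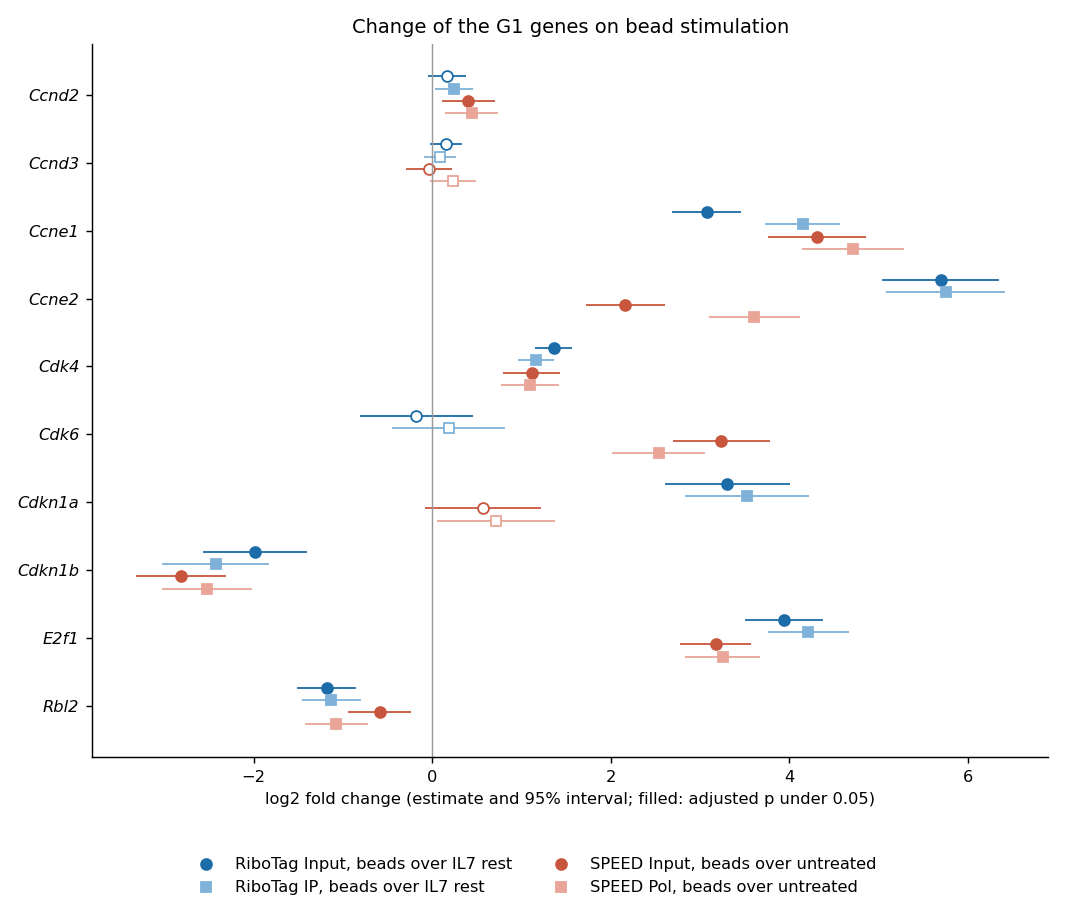
Change of each gene on bead stimulation, as the log2 fold change (horizontal axis) with its 95% interval, in RiboTag Input and IP over IL7 rest and in SPEED Input and Pol over untreated cells. Filled symbols have an adjusted p under 0.05. Ccne1, Ccne2, Cdk4 and E2f1 lie right of 0 and Cdkn1b and Rbl2 left of it in all 4 comparisons, while Cdk6 was called in SPEED and Cdkn1a in RiboTag.

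Whether stimulation changed a gene by different amounts in the assays was tested on the Input libraries of both together, as the SPEED change minus the RiboTag change. Of the 10 genes 6 were called, where 17% of 11843 genes were, 3 of them higher (7.81% of genes) and 3 lower (9.2%). Cdk6 differed by 3.42 ± 0.38 (SE; adjusted p = 2.18e-07), Ccne1 by 1.23 ± 0.42 (SE; adjusted p = 0.043) and Rbl2, whose fall was smaller in SPEED, by 0.59 ± 0.18 (SE; adjusted p = 0.0218). The difference was -3.55 ± 0.37 (SE; adjusted p = 7.18e-08) for Ccne2, -2.74 ± 0.50 (SE; adjusted p = 0.000244) for Cdkn1a and -0.77 ± 0.25 (SE; adjusted p = 0.0293) for E2f1. The Ccne1 call was lost with the mouse as a replicate block (1.26, adjusted p = 0.0655), with DESeq2 (1.24, 0.0915) and with no filter on low counts (1.22, 0.158), and leaving out single mice ended the calls of Ccne1, E2f1 and Rbl2 but not those of Ccne2, Cdk6 and Cdkn1a. Cdkn1b, at -0.84 ± 0.33 (SE; adjusted p = 0.0797), was called without RiboTag mouse 3 (-1.08, adjusted p = 0.0212). Control medium, mice and handling differ together between the assays and cannot be told apart.

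With Tregs beside the stimulated cells, few of the 10 genes were called. In RiboTag Input 1 gene fell, Cdk4, where 1.77% of genes fell and 4.53% were called in either direction. In RiboTag IP 1 gene rose, Cdkn1b, where 3.45% of genes rose and 5.69% were called. None of the 10 was called in SPEED Input, where 0.587% of genes were, or in SPEED Pol, where 0.282% were, by edgeR. At an unadjusted p under 0.05 there were 3 of the 10 in RiboTag Input (18.2% of genes), 3 in RiboTag IP (20% of genes), 5 in SPEED Input (14.4%) and 2 in SPEED Pol (7.99%). The median change of the 10 genes was -0.29, -0.21, -0.18 and -0.17 in these comparisons, and over all genes 0.0050, 0.0022, 0.024 and -0.020. The stimulated cultures serve as the control here and as the treated group above, so the changes on stimulation and with Tregs share samples.

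Cdk4 had 426, 365, 394, 405 and 360.2 CPM in RiboTag Input with Tregs, all below the stimulated range of 432 to 579. The fall was -0.32 ± 0.10 (SE; adjusted p = 0.0483), or 1.25-fold, and was present in 5 of 5 mice. The call did not hold without any 1 of the 5 mice (adjusted p = 0.0813 to 0.233), nor with RLE scaling (0.0538), without the filter on low counts (0.0903) or in mice 3 to 5 alone (0.0803). SPEED Input had 361, 328, 365 and 391 CPM with Tregs, all below the 398 to 538 CPM of stimulated cells, and a change of -0.35 ± 0.16 (SE; adjusted p = 0.302). Cdk6 had 58.7, 88.1, 105, 118 and 65.5 CPM with Tregs in RiboTag Input and 73.5, 68.0, 86.7 and 55.1 CPM in SPEED Input, so that every mouse was lower than with beads alone. The change was -0.59 ± 0.31 (SE; adjusted p = 0.326) and -0.48 ± 0.23 (SE; adjusted p = 0.34), with 95% intervals of -1.23 to 0.05 and -0.95 to -0.01. It was called in a fit of only the groups compared, in RiboTag Input (adjusted p = 0.0246) and IP (0.0303), and in IP in mice 3 to 5 alone (-0.70, adjusted p = 0.0198).

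Cdkn1b, the inhibitor that fell on stimulation, was at 18.8, 18.9, 6.2, 9.05 and 12.6 CPM in stimulated IP and at 40.4, 35.1, 23.4, 9.96 and 25.4 CPM with Tregs. All 5 mice were higher with Tregs, though mouse 4 by little, and the groups overlapped. These levels rest on 15 to 43 counts with beads alone and 19 to 104 with Tregs. The rise was 1.05 ± 0.30 (SE; adjusted p = 0.0317), or 2.07-fold, and lost its call without mouse 1, 2, 3 or 5 (adjusted p = 0.0619 to 0.146), in mice 3 to 5 alone (0.0713) and in a fit of only the groups compared (1.06, adjusted p = 0.085). Even with Tregs the IP level stayed below the 57.9 to 84.2 CPM of rested cells in every mouse. In SPEED Input Cdkn1b was at 19.1, 18.1, 12.5 and 18.2 CPM with Tregs against 9.49 to 12.3 with beads alone, a change of 0.59 ± 0.25 (SE; adjusted p = 0.277). RiboTag Input gave 0.49 ± 0.29 (SE; adjusted p = 0.384) and SPEED Pol 0.45 ± 0.25 (SE; adjusted p = 0.689).

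Rbl2 had 140.1, 126, 174, 125 and 159 CPM with Tregs in RiboTag Input and 135, 159.9, 150.3 and 163 CPM in SPEED Input. Each library with Tregs was above each library with beads alone in both assays. The change was 0.49 ± 0.16 (SE; adjusted p = 0.0756) in RiboTag Input, and the fit with the mouse as a replicate block called it (0.49, adjusted p = 0.033), as did DESeq2 (0.0486), the fit without mouse 2 (0.62, adjusted p = 0.0363), the fit of only the groups compared (0.0143) and the fit of mice 3 to 5 alone (0.00579). It was 0.56 ± 0.17 (SE; adjusted p = 0.121) in SPEED Input, 0.40 ± 0.16 (SE; adjusted p = 0.142) in RiboTag IP and 0.39 ± 0.18 (SE; adjusted p = 0.578) in SPEED Pol. It was called in SPEED Input with only the groups compared (0.55, adjusted p = 0.0405) and in RiboTag IP in mice 3 to 5 alone (0.56, 0.0177).

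The cyclins, Cdkn1a and E2f1 were not called with Tregs in any of the 4 comparisons. Ccnd2 gave -0.28 in RiboTag Input and -0.31 in SPEED Input (adjusted p = 0.119 and 0.321), lower in 5 of 5 and 4 of 4 mice. Ccnd3 gave -0.14 and -0.22, Ccne1 -0.31 and -0.23, Ccne2 -0.37 and -0.06, and E2f1 -0.12 and -0.14 in the same order. In RiboTag IP the changes of these 6 genes lay between -0.37 and -0.11, and in SPEED Pol between -0.33 and 0.10. Ccne1 in RiboTag Input, at 219, 201, 163, 199.7 and 172 CPM with Tregs, remained far above every rested library. The 95% interval for E2f1 was -0.47 to 0.22 in RiboTag Input and -0.48 to 0.20 in SPEED Input. Cdkn1a gave -0.47 in RiboTag Input and 0.12 in SPEED Input (adjusted p = 0.385 and 0.922), and the difference between the assays was 0.59 ± 0.45 (SE; adjusted p = 0.919). None of the 10 genes was called in that test of the assays' difference, by edgeR, where 0.127% of genes were. None had an unadjusted p under 0.05, where 6.13% of genes did.

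**Figure D3:**
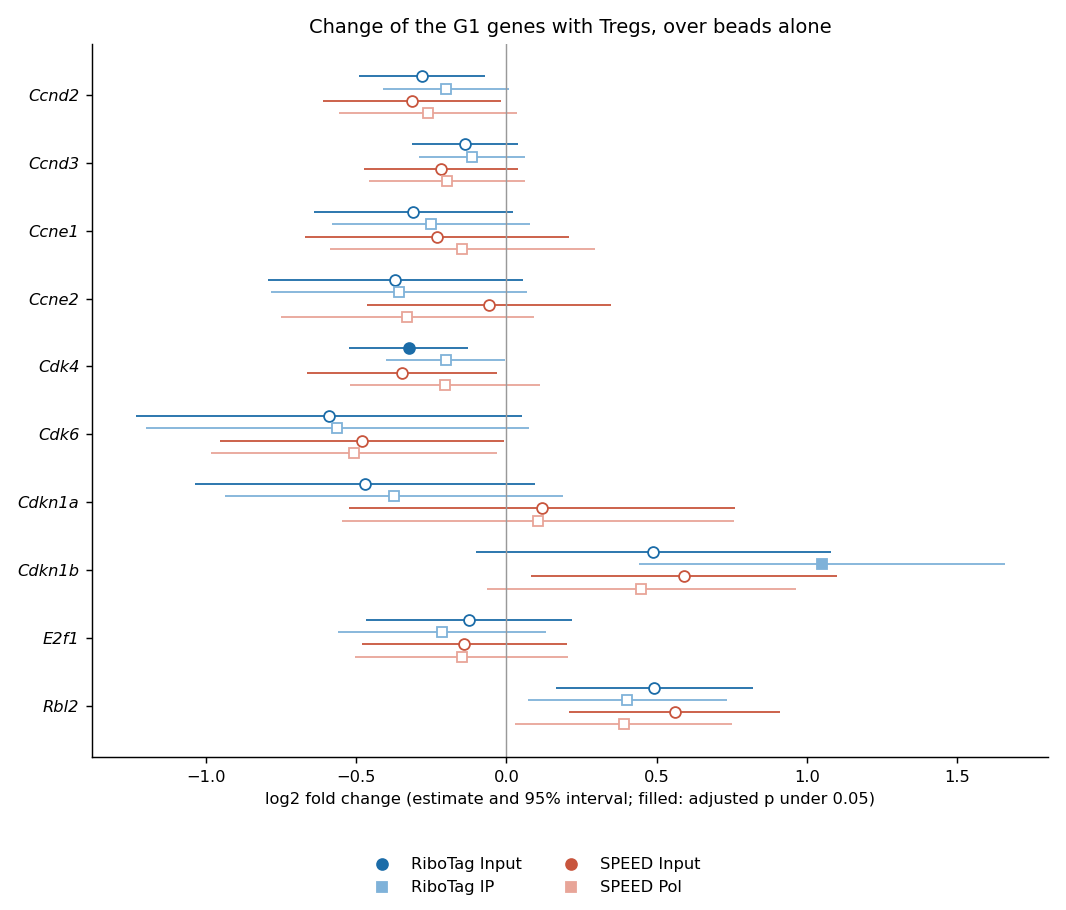
Change of each gene with Tregs over beads alone, as the log2 fold change (horizontal axis) with its 95% interval, in RiboTag Input and IP and in SPEED Input and Pol. The filled symbols, Cdk4 in RiboTag Input at -0.32 and Cdkn1b in RiboTag IP at 1.05, are the changes with an adjusted p under 0.05. Cdkn1b and Rbl2 have their estimates right of 0 in each comparison and the cyclins and kinases left of it.

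How each mRNA was spread over polysomes was read from SPEED as the ratio of Pol to SubPol CPM within a culture, on the log2 scale. A higher ratio means a larger share among polysomal than among subpolysomal mRNA, which commonly follows more ribosomes per mRNA. Ccnd2, Cdk6 and Rbl2 leaned to polysomes in untreated, stimulated and Treg cultures, while Ccne2 and, after stimulation, E2f1 leaned to the subpolysomal fraction. In untreated cells 5 of the 10 genes were called (39.7% of all genes), 3 higher in Pol and 2 lower (21.9% and 17.8%). In stimulated cells 4 were called (45.4%), 3 higher and 1 lower (23.6% and 21.8%). With Tregs 5 were called (44.2%), 3 higher and 2 lower (22.6% and 21.6%). Without mouse 1 the Rbl2 call was lost in stimulated cells (0.49, adjusted p = 0.0643) and with Tregs (0.47, 0.0644), and without mouse 2 the Ccne2 call with Tregs was lost (-0.52, 0.0954). In a fit of only the groups compared, Ccne1 was called higher in Pol in stimulated cells (0.32, adjusted p = 0.0149) and with Tregs (0.41, 0.00664), the latter also without mouse 1 (0.44, 0.0314).

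Ccnd2 had log2 ratios of 0.66, 0.64, 0.48 and 0.67 in untreated and 0.67, 0.87, 0.56 and 0.94 in stimulated cultures of mice 1 to 4. All were above 0, and the fitted ratios were 0.61 ± 0.15 (SE; adjusted p = 0.00086) and 0.77 ± 0.15 (SE; adjusted p = 3.41e-05). Ccnd3, its relative, had -0.25, -0.41, -0.65 and -0.60 in untreated and 0.00, 0.06, -0.23 and 0.03 in stimulated cultures. The untreated ratio was -0.48 ± 0.13 (SE; adjusted p = 0.00223), and the change on stimulation was 0.46 ± 0.18 (SE; adjusted p = 0.164). The D-type cyclins thus lay on opposite sides of 0 in untreated cells.

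Ccne1 had ratios of -0.86, 0.01, -0.42 and -0.91 untreated and 0.43, 0.32, 0.21 and 0.48 stimulated, and Ccne2 had -1.13, -1.12, -3.10 and -1.23 and -0.31, -0.76, -0.51 and -0.26. For both, every stimulated culture lay above every untreated one. The change was 0.86 ± 0.40 (SE; adjusted p = 0.254) for Ccne1 and 1.20 ± 0.34 (SE; adjusted p = 0.0427) for Ccne2. The Ccne2 call rests on few counts, 10 to 34 in untreated Pol, and on mouse 3 in particular, without which the change was 0.77 (adjusted p = 0.282). It was also lost without each other mouse, with no filter on low counts (1.18, adjusted p = 0.0642), in a fit of only the groups compared (1.21, 0.136), and when the SubPol library of untreated mouse 3 was left out (1.13, adjusted p = 0.0658), the library with the fewest genes detected, 12851, where the same fraction of the other mice had at least 13556. The fitted Ccne2 ratio was -1.67 ± 0.27 (SE; adjusted p = 3.58e-06) untreated and -0.46 ± 0.20 (SE; adjusted p = 0.0627) stimulated. The stimulated ratio was called with the mouse as a replicate block (-0.47, adjusted p = 0.0379) and with the culture as a block (-0.47, 0.037). It was also called with RLE scaling (-0.49, 0.0499), with DESeq2 (-0.49, 0.0271) and with only the groups compared (-0.50, 0.00304).

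Cdk6 had ratios of 0.82, 2.54, 2.36 and 1.23 in untreated and 0.52, 1.01, 0.60 and 1.10 in stimulated cultures, and Cdk4 had 0.03, 0.05, 0.01 and 0.19 and -0.12, 0.09, -0.15 and 0.15. Cdk6 was above 0 throughout and Cdk4 close to 0, and the untreated Cdk6 ratios rest on 7 to 22 counts in SubPol. The fitted Cdk6 ratio was 1.73 ± 0.32 (SE; adjusted p = 3.27e-05) untreated and 0.78 ± 0.24 (SE; adjusted p = 0.00668) stimulated, and the change between them was -0.95 ± 0.40 (SE; adjusted p = 0.2). For Cdk4 the stimulated ratio was 0.01 ± 0.16 (SE; adjusted p = 0.972), with a 95% interval of -0.31 to 0.33. Rbl2 had 0.67, 0.98, 0.74 and 0.75 untreated and 1.16, 0.61, 0.54 and 0.32 stimulated, fitted at 0.79 ± 0.17 (SE; adjusted p = 0.000343) and 0.64 ± 0.18 (SE; adjusted p = 0.00407). Neither inhibitor was called in either state, and Cdkn1b stood at 0.01, 0.05, 0.02 and 0.00 in untreated cells.

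E2f1 lay below 0 in every stimulated and every Treg culture. The ratios were -0.32, 0.93, 1.36 and -0.58 in untreated cultures, -1.14, -1.23, -1.31 and -1.34 in stimulated cultures and -1.48, -1.14, -1.07 and -1.22 with Tregs. The untreated cultures were widely spread on both sides of 0, on 12 to 62 counts in SubPol, while all 8 cultures with beads or with beads and Tregs lay below them between -1.07 and -1.48. The fitted ratio was -1.26 ± 0.17 (SE; adjusted p = 1.26e-07) in stimulated cells and -1.23 ± 0.17 (SE; adjusted p = 2.15e-07) with Tregs. The change on stimulation was -1.39 ± 0.30 (SE; adjusted p = 0.00796). It lost its call without mouse 2 (-1.16, adjusted p = 0.101), without mouse 3 (-1.17, 0.0703) and in a fit of only the groups compared (-1.37, 0.0726). Of the 10 genes, Ccne2 and E2f1 were called for this change, 1 in each direction, where 2.6% of genes were called, 1.56% higher and 1.04% lower. E2f1 RNA rose in both fractions, from 20.3, 8.31, 4.85 and 25.5 to 333, 359.6, 337 and 403 CPM in SubPol and from 16.1, 16.4, 13.4 and 16.9 to 151, 153, 135 and 158 CPM in Pol. With Tregs a change of the ratio was called for none of the 10 genes and for 0% of genes by edgeR. None of the 10 had an unadjusted p under 0.05, where 2.64% of genes did, and the interval for E2f1 was -0.46 to 0.52.

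**Figure D4:**
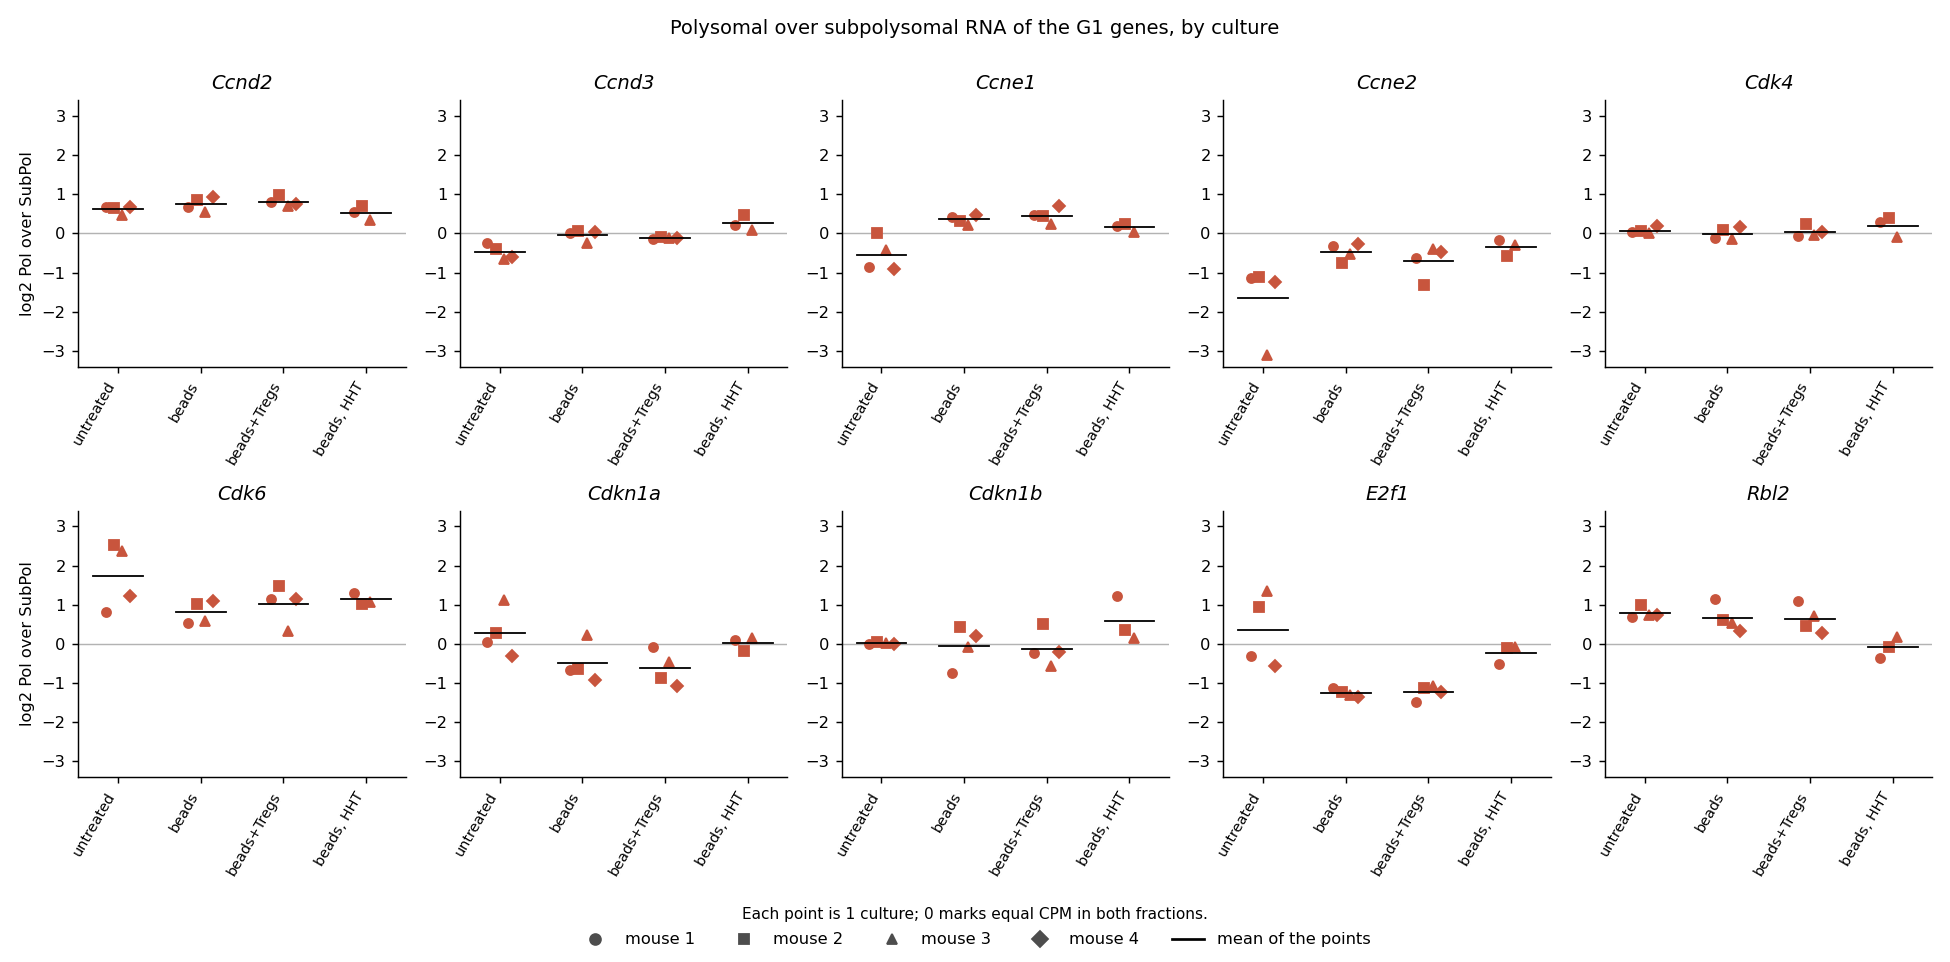
Log2 ratio of polysomal to subpolysomal CPM for each gene, 1 point per culture of SPEED mice 1 to 4, in untreated cells and with beads, beads and Tregs, or beads and HHT. Horizontal bars are means of the points and the line at 0 marks equal CPM in both fractions. E2f1 lies between -1.07 and -1.48 with beads and with Tregs and between -0.08 and -0.52 after HHT, while Ccnd2 and Cdk6 lie above 0 in every culture.

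HHT was given to bead-stimulated cells of mice 1 to 3 for 10 min, and its Input libraries used here are 2, titled as mice 1 and 3. In Pol over SubPol after HHT, Ccnd2 and Cdk6 were called, both higher in Pol, where 4.51% of genes were and 6.75% were called in all. The ratios were 1.30, 1.02 and 1.08 for Cdk6 and 0.55, 0.69 and 0.34 for Ccnd2, all above 0, with fitted values of 1.13 ± 0.27 (SE; adjusted p = 0.00785) and 0.53 ± 0.17 (SE; adjusted p = 0.0477). Both calls were lost without any 1 of the 3 mice, and that of Ccnd2 also with no filter (0.0703) and with only the groups compared (0.0642). Compared with stimulated cells, the ratio was called higher for 1 of the 10 genes, E2f1, where it was for 10.3% of genes and 23% were called. Among all genes tested, the ratio was called higher in 1284 and lower in 1576. Each level is relative to its own fraction, so movement of mRNA between fractions was not measured. The share called in Pol over SubPol was 6.75% after HHT, with fewer mice, and 45.4% in stimulated cells. A shift of the ratio in either direction was thus common and not particular to these genes. E2f1 ratios after HHT were -0.52, -0.11 and -0.08, each nearer to 0 than any stimulated culture, a change of 1.02 ± 0.26 (SE; adjusted p = 0.00376). Rbl2 went the other way, with -0.37, -0.08 and 0.17 after HHT, below every stimulated culture, a change of -0.66 ± 0.28 (SE; adjusted p = 0.0828). With the culture as a block it was called (-0.72, adjusted p = 0.0177), and likewise without mouse 3 (-0.95, 0.0414). None of the 10 genes was called in Input after HHT, where 0.105% of genes were, by edgeR. None had an unadjusted p under 0.05, where 8.25% of genes did. Input E2f1 was at 189.9 and 197 CPM, a change of -0.16, with a 95% interval of -0.58 to 0.26.

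In RiboTag the corresponding ratio is IP over Input. At rest Ccne1 was lower in the precipitate, with log2 ratios of -0.89, -1.01, -0.53, -0.65 and -1.60 in mice 1 to 5, against -0.15, 0.23, 0.07, 0.33 and 0.25 with beads. All rested cultures were below 0 and below every stimulated culture. The rested ratio was -0.93 ± 0.23 (SE; adjusted p = 0.0111) and was the 1 call among the 10 genes, where 6.89% of genes were called and 3.54% were lower. It was lost without mouse 5 (-0.73, adjusted p = 0.128) and with only the groups compared (-0.95, 0.175). E2f1, at -0.50 ± 0.27 (SE; adjusted p = 0.283), was called without mouse 3 (-0.96, 0.0478), and the other 8 genes lay between -0.20 and 0.22. None of the 10 was called in stimulated cells or with Tregs, where 0.977% and 1.85% of genes were, by edgeR. At an unadjusted p under 0.05 there were 0 and 1 of the 10, against 13.6% and 16.8% of genes. The fitted ratios of the 10 genes ran from -0.54 for Cdkn1b to 0.18 for Cdkn1a in stimulated cells and from -0.31 for E2f1 to 0.27 for Cdkn1a with Tregs. For the change of the ratio on stimulation no gene of the 10 was called, against 0.0279% of all genes. Of the 10, 1 had an unadjusted p under 0.05 (5.62% of genes). That was Ccne1, with 1.07 ± 0.28 (SE; adjusted p = 0.437), which was called when the culture was a block (1.08, adjusted p = 0.00951). With Tregs a change of this ratio was called for none of the 10 and for 0% of all genes by edgeR. None of the 10 had an unadjusted p under 0.05, where 1.16% of genes did. The 95% interval for Cdkn1b, whose IP level rose with Tregs, was -0.29 to 1.41.

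Across the 18 groups of both assays, centred within each assay, the levels of the 10 genes were compared with each other. The correlation of mean log2 CPM was 0.945 between Ccne1 and E2f1, 0.937 between Ccne2 and E2f1, and 0.934 between Cdk4 and Ccne1. Cdkn1b followed Rbl2 most closely, at 0.754, and ran opposite to Ccne1, at -0.96. Ccnd3 followed no other gene, with its highest value, 0.214, against Cdkn1b. Groups that share mice, fractions of a culture and the same stimulation contrast enter these values, which are descriptions without a test.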

How the data were processed

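RNA was sequenced from 75 libraries of 9 mice, made with a SMART-Seq v4 kit and NexteraXT per the labels' protocols, a route that does not mark strand. For each assay the authors deposited a table of raw read counts by gene. Per the submitters' processing notes the build was GRCm38 and the tools HTSeq 0.4.1, Picard 1.134, FastQC 0.11.3 and SAMtools 1.2, and the aligner is not given in the sources used here. In the RiboTag table, 16 columns that could be tied to no sample were left aside. Of a pair of SPEED libraries with the title of mouse 1 HHT Input, the later was left out, leaving 44. No HHT Input is titled as mouse 2, and whether the later library came from that mouse is not settled by the labels.

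Counts were fitted in R 4.3.3 with edgeR 4.0.16 (filterByExpr, minimum count 10 and total 15, TMM, robust quasi-likelihood), all groups of an assay together. The reported fits hold the group only, with no term for mouse or culture, so the fractions of a culture enter them unpaired. Tests were two-sided, with intervals at 95%. The standard error is the estimate divided by the root of F. Ratios within a culture are differences of log2 CPM (prior count 2). Ratio changes are interactions. The script was tested on data simulated for some of the comparisons. These were drawn independently for each library, with changes set only in genes above a minimum level. They do not cover changes in genes of low level or pairing within a mouse or culture. Alternatives were RLE scaling, DESeq2 1.42.0, no filter, fewer groups, mice left out, and mouse or culture as a block.

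Same-numbered samples of an assay are the same mouse, per the labels. Within a mouse, deviations from the group means had an r of 0.214 on average (-0.0909 to 0.578) among RiboTag and 0.0922 (-0.352 to 0.591) among SPEED libraries, so in SPEED the pairing rests on the labels. Libraries of a group differed by more than counting error in all 60 and 61 pairs compared, with a chi-square per degree of freedom of at least 2.61 and 1.79. The SPEED strain is given from the sample labels.

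The 10 genes, the motifs and the alternatives were chosen with earlier results of these data known. All 10 were tested in every comparison. A list of further G1/S genes and the lists of cell type markers were not used, because the tables used here do not pair their symbols with the files' identifiers.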

Additional observations from a re-analysis of the deposited data

Results flagged for a closer look

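In groups of 4 or 5 libraries, 7 levels of 4 genes lay far from the rest of their group by Dixon's criterion, of 150 groups tested, where chance would give about 7.5 (1 in 20). Ccnd2 stood at 622 CPM in RiboTag Treg Input of mouse 4, above the 449 to 478 of the other mice. It stood at 1181 CPM in SPEED Treg Pol of mouse 4, above 768 to 823, and at 540.2 CPM in untreated SPEED Input of mouse 1, below 631 to 641. Cdkn1b stood at 17.0 CPM in stimulated SPEED Pol of mouse 3, above 11.5 to 12.4, and at 12.5 CPM in SPEED Treg Input of the same mouse, below 18.1 to 19.1. E2f1 stood at 36.0 CPM in untreated SPEED Input of mouse 2, above 19.0 to 20.3. Rbl2 stood at 141 CPM in SPEED Treg Pol of mouse 2, above 126 to 127.

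The change on stimulation in Input differed between the assays in 6 genes, by the test of the difference itself. As SPEED minus RiboTag it was 1.23 for Ccne1, -3.55 for Ccne2, 3.42 for Cdk6, -2.74 for Cdkn1a, -0.77 for E2f1 and 0.59 for Rbl2 (log2). The unstimulated cells were IL7-rested in RiboTag and untreated in SPEED, and the part of that in these differences was not tested.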

How the results depend on the processing

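Counts of called genes among the 10 moved by over 1.5 times from those reported in 35 of 253 refits. The share of all genes called at the same setting stands in brackets. For Tregs in RiboTag Input the 1 gene called (4.53%) became 0 with RLE scaling (4.46%) and with no filter on low counts (1.44%), 2 with the mouse as a replicate block (7.84%) and with DESeq2 (6.33%), and 3 in a fit of only the groups compared (9.28%). For Tregs in RiboTag IP the 1 (5.69%) became 2 in mice 3 to 5 alone (5.95%), and for Tregs in SPEED Input the 0 (0.587%) became 1 with only the groups compared (1.57%). With the culture as a block, 0 (0.0279%) became 1 (0.177%) for the change of IP over Input on stimulation, 1 (6.89%) became 2 (17.9%) for IP over Input at rest, 0 (1.85%) became 1 (11.2%) for IP over Input with Tregs and 1 (23%) became 2 (26.8%) for the change of Pol over SubPol with HHT. IP over Input at rest gave 0 with only the groups compared (1.86%). The change of Pol over SubPol on stimulation, 2 genes (2.6%), gave 1 with no filter (0.713%), 0 with only the groups compared (1.05%) and 1 when the SubPol library of untreated mouse 3 was left out (3.04%). Pol over SubPol after HHT, 2 genes (6.75%), gave 1 with no filter (1.7%) and 1 with only the groups compared (6.57%).

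With each mouse left out in turn, counts ran from 0 to 1 for Tregs in RiboTag Input (1.78% to 4.43% of all genes). Tregs in RiboTag IP gave 0 to 1 (2.05% to 4.12%) and IP over Input at rest 0 to 2 (2.35% to 9.59%). The change of Pol over SubPol on stimulation gave 0 to 1 (0.471% to 1.35%). Pol over SubPol after HHT gave 0 to 2 (1.09% to 6.52%) and its change with HHT 1 to 2 (12.6% to 19.4%). Leaving out a mouse of HHT leaves 2 libraries, or 1 in Input, whose spread is then taken from the other groups. For single genes, 2309 of 2526 values kept their direction and their side of the threshold, 60 lost a call and 38 gained one. A further 118 changed sign but were called neither as reported nor under the alternative, with sizes of at most 0.68, so those genes have no settled direction there. Cdk6 changed sign with a call on stimulation in RiboTag Input, at 0.59 in mice 3 to 5 alone and -0.18 over all 5. The replicate block (mouse) changed no other call than those given beside the results, and the culture as a block also called 4 ratios not given there. These were Cdk4 at rest (0.22, adjusted p = 0.0228) and Ccnd2 with Tregs (0.24, adjusted p = 0.00724) in IP over Input, and Ccne1 (0.45, adjusted p = 0.0381) and Cdkn1a (-0.62, adjusted p = 0.0411) in Pol over SubPol with Tregs. Summing both libraries of the repeated title left the HHT Input counts of calls at 0. Low counts limit Ccne1, Ccne2, Cdkn1a and E2f1 in rested cells and Ccne1, Ccne2, Cdk6, Cdkn1a and E2f1 in untreated cells, E2f1 there in SubPol. They also limit Cdkn1b in stimulated cells, at 15 to 43 counts in RiboTag IP and 17 to 69 in SPEED Pol.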

Other observations

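The later SPEED library with the title of mouse 1 HHT Input entered no comparison. In CPM of its own total it held 681 for Ccnd2, 189 for Ccne1, 70.7 for Ccne2, 359.5 for Cdk4, 84.5 for Cdk6, 9.11 for Cdkn1b and 187 for E2f1. The first library of that title held 648, 217, 89.2, 342, 104, 11.7 and 193 CPM in the same order, and the HHT Input library of mouse 3 held 727, 201, 85.9, 401, 74.4, 14.4 and 199.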
